A study of Mus musculus with 10 samples.

Results

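Gene expression was compared between 5 cystic fibrosis knockout mice whose title codes begin with H and 3 whose codes begin with L, which are the 8 knockouts of the 10 animals analysed here. All were B6xBALB F2 mice, the second generation bred from C57BL/6 and BALB/c founders, so that each animal carries its own mixture of both genomes. The knockouts lack Cftr, the chloride and bicarbonate channel that is defective in cystic fibrosis. The labels do not spell out H and L; the series title speaks of cystic fibrosis knockout mice of variable weight, and the comparison asks which transcripts separate both classes of knockout. The codes also hold the letter M or F, M in 4 of 5 H knockouts and 1 of 3 L knockouts. The CHN number in the title lies in the 500s for H replicates 1, 2 and 3 and for L replicates 1 and 2. It lies in the 300s for H replicates 4 and 5, for L replicate 3 and for both controls, whose codes begin with D and which are given beside the knockouts as values only. Age, diet, body weight and the kind of Cftr allele are not stated in the labels. The distinct CHN numbers are the only sign that the samples are separate animals, and the p-values measure the spread between these samples only.

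In mice without Cftr the intestinal epithelium secretes too little chloride, bicarbonate and water, mucus accumulates in the crypts and between the villi, and the gut becomes prone to obstruction. Digestion and absorption of fat are impaired, bile acids are lost, the mucosa is mildly inflamed, and the animals stay small, to a degree that depends on genetic background and diet. Genes of nutrient uptake, lipid handling, gut hormones, the growth hormone axis and gut immunity are therefore described in turn, after the genes with the best supported differences.

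The arrays held 1 biotin-labelled total RNA each, and the authors deposited a linear intensity for every probe set, a group of short oligonucleotides that reports 1 transcript. Array medians of the 34945 probe sets with a single gene symbol lay between 22.6 and 23.3. Whole right lung is the labelled tissue, but the arrays were rich in transcripts of small intestine epithelium. Of 15 genes on a list of such epithelium, 12 stood in the top 5% of genes, and Fabp2, which binds fatty acids in enterocytes, ranged from 3217 to 5178 in the knockouts. Lung transcripts were present too: Sftpc, the surfactant protein C of alveolar type 2 cells, ranged from 1099 to 4169, and the median gene of the alveolar type 2 list stood at percentile 83.1. Cftr read 33.9, 19.7, 35.5, 20.8 and 29.1 in H replicates 1 to 5 and 34.5, 30.5 and 21.2 in L replicates 1 to 3, against 131 and 137 in the controls, and the H minus L difference was -0.02 ± 0.14 (SE, log2). Xist, the RNA that coats the inactive X chromosome, and Y-linked transcripts followed the letter in all 8 knockouts.

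Several knockouts stood apart from the rest, and each bears on the results. L replicate 3 was high in several transcripts of large intestine epithelium. Cyp2c55, a cytochrome P450, read 824 there and 7.19 to 11.5 in the other 7 knockouts (26.6 and 215 in the controls), and Car2, a cytosolic carbonic anhydrase, read 1050 there and 40.3 to 66.6 in the others. The mean log2 deviation over 13 such genes was 1.40 in that array and -0.52 to 0.07 in the other knockouts. This list was drawn up after the values were seen, so its score is no separate support. Some members were not raised: Car4 read 2132 there and 1013 to 3044 in the other knockouts. Lypd8 read 7741 against 6334 to 7832, and Hoxd13 12.7 against 12.1 to 15.4. H replicates 2 and 5 were highest in alveolar type 2 transcripts (mean deviations 0.74 and 0.45). H replicate 3 was highest in adipocyte and smooth muscle transcripts (1.07 and 0.48), and H replicate 1 was lowest in adipocyte transcripts (-1.01). What part these differences in tissue content play in the H versus L results was not tested. Leaving out 1 knockout moved the median by more than 1.5 times for 41 of 42 lists and turned its sign for 30 of them, many with medians near 0. In bulk RNA, fewer cells of a type and less RNA per cell cannot be told apart.

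**Figure D1:**
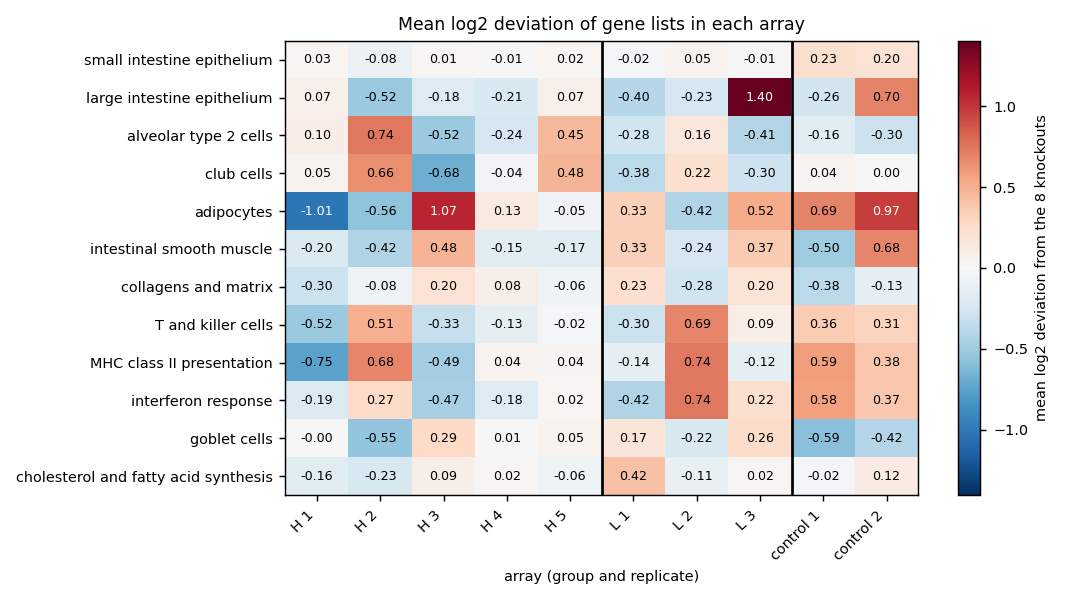
Mean log2 deviation of each array from the mean of the 8 knockouts over 12 gene lists (rows), for the 5 H knockouts, the 3 L knockouts and the 2 controls (columns, separated by black lines); red is above and blue below that mean. L replicate 3 reads 1.40 in large intestine epithelium, H replicate 2 reads 0.74 in alveolar type 2 cells, and L replicate 2 reads 0.74 in the interferon response.

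No transcript separated H from L past the threshold. The comparison was fitted with limma on log2(intensity + 16) over 26208 probe sets of 14694 genes, with the number range as a covariate and Benjamini-Hochberg adjustment at 0.05. It called 0 probe sets (0%), and the smallest adjusted p was 0.9999. At an unadjusted p under 0.05 the limma fit held 515 probe sets (1.97%), 268 with H higher (1.02%) and 247 with H lower (0.942%). Small p-values were scarcer than an even spread over the bins of the p-value plot would give. The 5 H and 3 L values did not overlap for 410 probe sets (1.56%), 248 with all H values higher (0.946%) and 162 with all H values lower (0.618%). With so few arrays some probe sets separate fully without any class difference. Lack of overlap is therefore a description and no test, and part of the genes named below were chosen for it. The median difference over all genes was -0.0037, and H was higher for 7037 of 14694 genes (47.9%). Counted by gene, with the brightest probe set for each, 135 were higher (0.919%) and 133 lower (0.905%) at an unadjusted limma p under 0.05. The groups did not overlap for 139 genes with H higher (0.946%) and 95 with H lower (0.647%).

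The data also bound how large a difference could be. The median standard error was 0.077 on the log2 scale, with 0.0511 and 0.187 at the 5th and 95th percentiles. The 95% interval of the difference lay inside 2-fold in either direction for 25872 probe sets (98.7%). On this scale the differences of dim transcripts are understated, since 16 is added to every intensity. Estimated differences beyond 2-fold were seen for 12 probe sets, 10 with H lower and 2 with H higher, and none of these was free of overlap between H and L.

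**Figure D2:**
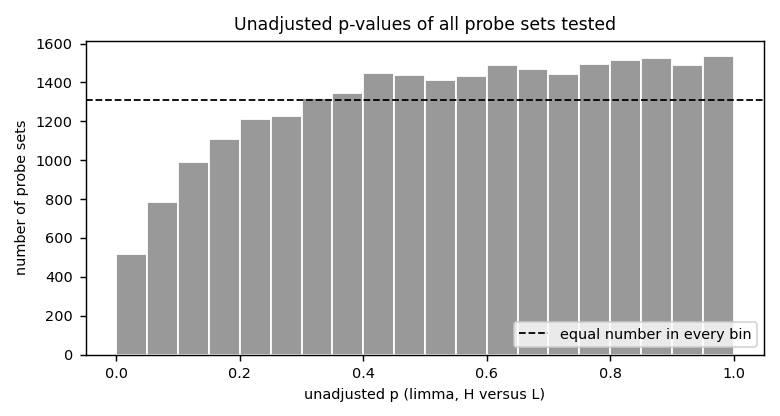
Number of probe sets (vertical axis) in bins of the unadjusted p-value of H versus L from limma (horizontal axis, bins 0.05 wide); the dashed line marks an equal number in every bin. The first bin holds 515 probe sets and the last 1538.

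Among genes with H above L, Stom had the best supported difference. It encodes stomatin, a membrane protein of cholesterol-rich lipid rafts. Its brightest probe set read 776, 762, 705, 657 and 699 in H replicates 1 to 5 and 470, 526 and 604 in L replicates 1 to 3, so that every H knockout lay above every L knockout, while the controls spanned 407 and 678. The log2 difference was 0.43 ± 0.09 (SE; limma unadjusted p = 0.00187, adjusted p = 0.9999). All 5 Stom probe sets gave a like difference, from 0.42 to 0.46, and 2 of them had no overlap; the probe set with 0.46 held the smallest unadjusted limma p of the whole comparison, 0.000867. With the letter as a further covariate the brightest probe set gave 0.44, and without L replicate 3 it gave 0.57.

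Pyroxd2, named for its pyridine nucleotide-disulphide oxidoreductase domain, had the largest difference among the 24 genes chosen by moderated t. It read 41.7, 43.9, 74.5, 44.3 and 45.2 in the H knockouts and 17.2, 16.5 and 33.8 in the L knockouts, with 63.5 and 48.2 in the controls. The lowest H value exceeded the highest L value, and the difference was 0.78 ± 0.19 (limma unadjusted p = 0.00381). A second Pyroxd2 probe set gave 0.31 ± 0.10 with overlapping groups, and the last one 0.10 ± 0.07. Plekhm3, which carries pleckstrin homology domains, read 34.3, 35.3, 31.2, 39.9 and 34.7 in H and 26.8, 24.97 and 27.7 in L. Its groups did not overlap (0.26 ± 0.06), but its second probe set gave 0.03 ± 0.08.

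Further genes of this direction belonged to several functions. Dtx3, a ubiquitin ligase of the Deltex family, read 46.2 to 58.9 in H and 39.8 to 43.6 in L (0.23 ± 0.05). Frrs1, a ferric chelate reductase, read 95.4 to 113 against 80.3 to 84.9 (0.25 ± 0.07), and its second probe set gave 0.10 with overlap. Ggt7, of the gamma-glutamyltransferase family, read 19.8 to 24.4 against 15.4 to 18.3, near background (0.20 ± 0.05). Tanc1, a scaffold protein, Rhbdd3, of the rhomboid family, and Gtf3c2, a subunit of the RNA polymerase III factor TFIIIC, were free of overlap as well, with differences of 0.20, 0.18 and 0.24. The other 4 Gtf3c2 probe sets gave 0.01 to 0.09, the other 2 of Rhbdd3 gave 0.10 and -0.02, and a second one of Tanc1 gave -0.04. Tnnt2, the cardiac form of troponin T, did not overlap either (0.29 ± 0.08), whereas AI467606 (0.41 ± 0.11) and Ralgapa2, the catalytic subunit of a Ral GTPase-activating complex (0.33 ± 0.09), did. The second AI467606 probe set gave 0.45 ± 0.09 with no overlap. Further Tnnt2 probe sets overlapped and gave 0.13 and 0.01.

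Genes chosen for size among those with every H value above every L value included products of endothelium and epithelium. Gpihbp1, which carries lipoprotein lipase to the capillary wall for the breakdown of triglyceride-rich particles, read 37.2, 75.4, 38.7, 48.4 and 60.1 in H and 30.02, 36.5 and 33.2 in L. The margin between the groups was narrow, the 2 highest readings came from H replicates 2 and 5, the arrays highest in lung transcripts, and the difference was 0.43 ± 0.18. Jcad, a junction protein of endothelial cells, was highest in the same arrays (59.3 and 46.5, against 25.6 to 32.3 in the other H and 21.2 to 25.5 in the L knockouts; 0.45 ± 0.20). Cldn8, a claudin of tight epithelia, read 27.6, 23.99, 26.5, 29.0 and 19.6 in H and 8.36, 18.6 and 18.1 in L, with 38.8 and 19.9 in the controls. Its lowest H value lay just above the L range, at a level close to background. The difference was 0.43 ± 0.13, or 0.64 with the letter as a covariate.

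Arid5b, a DNA-binding protein with a part in fat metabolism, read 143, 124, 180, 113 and 130 in H and 95.2, 92.4 and 109 in L, so that all H values were higher (0.41 ± 0.13). Of its other 3 probe sets, 1 gave 0.28 ± 0.08 without overlap, 1 gave 0.17 and 1 gave -0.12. Ctsh, the lysosomal protease cathepsin H, read 240 to 388 in H and 221 to 240 in L, where the groups met almost exactly (0.37 ± 0.14). Plcxd2, a protein with a phospholipase C domain, read 181 to 218 in H and 134 to 172 in L (0.30 ± 0.10); its second probe set gave 0.02 ± 0.09.

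Among genes with H below L, the gut peptide Nts stood out for its known role. Neurotensin is released by enteroendocrine cells of the distal small intestine in response to fat. It read 466, 405, 347, 317 and 355 in H and 483, 550 and 473 in L, with 768 and 560 in the controls. All H knockouts lay below all L knockouts, and all knockouts below both controls (difference -0.39 ± 0.10, limma unadjusted p = 0.00485, adjusted p = 0.9999). The value was -0.38 with the letter, -0.34 without L replicate 3, and between -0.48 and -0.33 in 24 alternative settings. As the groups did not overlap, leaving out arrays could not have turned its sign.

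Sectm1a, a secreted and transmembrane protein, read 15.1, 12.4, 14.9, 15.1 and 12.2 in H and 27.2, 33.5 and 17.0 in L. All H values lay below the L range, at a level close to background, and the difference was -0.45 ± 0.11. Sesn3, a sestrin that restrains growth signalling through mTORC1 when amino acids are short, read 81.0, 80.6, 72.9, 76.3 and 67.7 in H and 97.1, 100 and 84.1 in L (-0.25 ± 0.06). Its groups did not overlap, and both controls (59.3 and 73.2) lay below the L knockouts too. A second Sesn3 probe set gave -0.16 with overlapping groups. Cln3, a lysosomal membrane protein mutated in Batten disease, read 30.8 to 36.2 in H and 38.0 to 43.5 in L (-0.24 ± 0.06), though its second probe set gave -0.03 ± 0.06.

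Metabolic and mitochondrial proteins were also found on this side. Fahd1, a mitochondrial oxaloacetate decarboxylase, read 89.3, 140, 164, 143 and 132 in H and 234, 171 and 176 in L, with 256 and 215 in the controls. No H value reached the L range, and the difference was -0.49 ± 0.18. Rmdn3, which tethers mitochondria to the endoplasmic reticulum, read 269 to 365 in H and 343 to 528 in L, with 1 H value inside the L range (-0.45 ± 0.12); its second probe set gave -0.32 ± 0.13. Cox6b2, a tissue-restricted subunit of cytochrome c oxidase, overlapped (-0.30 ± 0.09), and Tpmt, which methylates thiopurine drugs, did not (-0.27 ± 0.11). Further Tpmt probe sets overlapped and gave -0.03, -0.01 and 0.10. Hagh, the glyoxalase that hydrolyses lactoylglutathione, was singled out after its values were seen because its 3 probe sets gave -0.47, -0.35 and -0.45, of which the first 2 had no overlap.

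Immune signals formed another part of the genes with all H values lower. Ccl8, a chemokine made by macrophages, read 70.6, 130, 149, 127 and 107 in H and 183, 176 and 161 in L, with 32.8 and 69.3 in the controls (-0.54 ± 0.20). It was thus highest in the L knockouts and lowest in the controls. Tnfsf13b, the B cell survival factor BAFF, was also highest in L, with 38.1 to 71.3 in H, 76.6 to 80.9 in L and 40.1 to 48.0 in the controls (-0.40 ± 0.15). A second Tnfsf13b probe set gave -0.12 with overlap. Enpp3, an ectonucleotidase, read 13.2 to 22.2 in H and 23.2 to 26.9 in L, near background (-0.28 ± 0.11). Its second probe set gave -0.13 with overlap.

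The remaining genes of this direction had smaller differences. Zfp511, a zinc finger protein, read 30.4 to 36.7 in H and 39.2 to 48.3 in L (-0.24 ± 0.06), but its other 2 probe sets both gave -0.02. Ablim1, an actin-binding LIM protein, read 103 to 114 against 122 to 126 (-0.20 ± 0.05), with its other 2 probe sets at -0.01 and -0.02. Cnpy4, of the canopy family, read 43.8 to 53.0 against 53.8 to 68.5 (-0.28 ± 0.08). These 3 did not overlap. Snx7, a sorting nexin (-0.39 ± 0.11), Pds5a, a cohesin-associated protein (-0.20 ± 0.05), and 1700088E04Rik (-0.24 ± 0.07) overlapped. Further Pds5a probe sets gave 0.01 and -0.04.

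**Figure D3:**
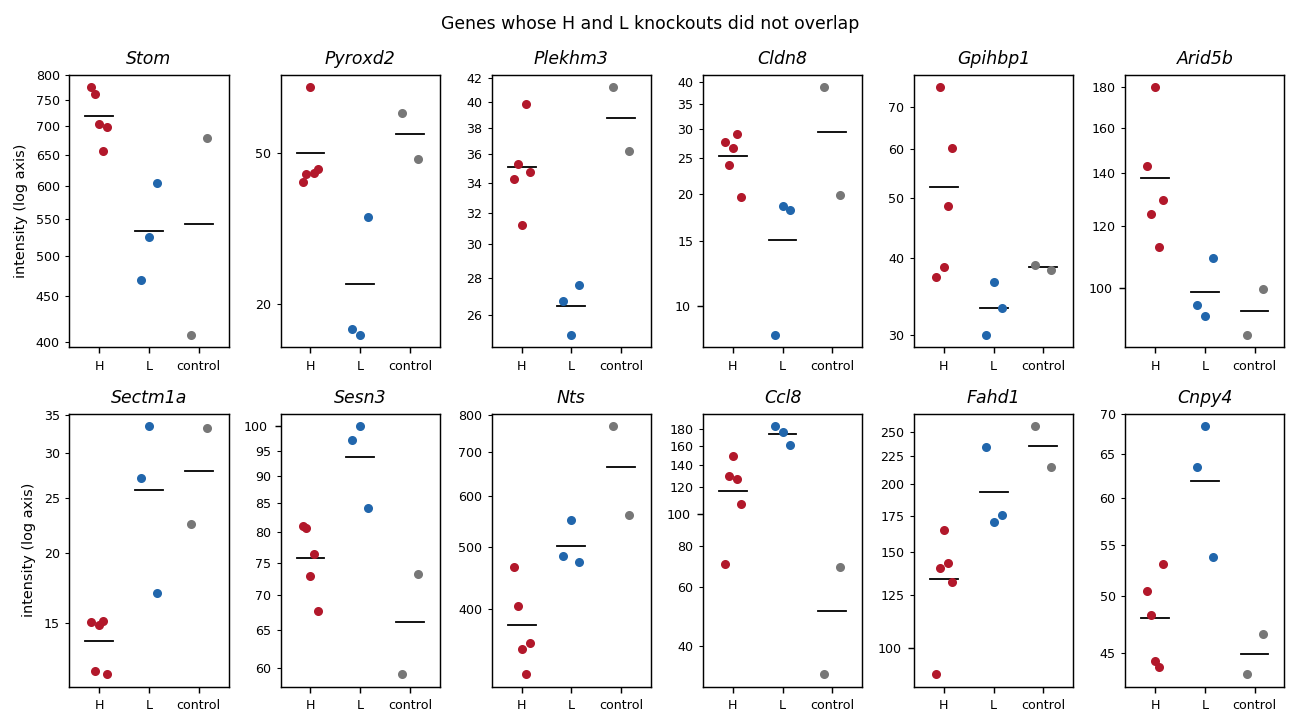
Intensity (log axis) of 12 genes whose H and L knockouts did not overlap, 6 with H higher (top) and 6 with H lower (bottom); each point is an array and each bar the group mean, for 5 H knockouts, 3 L knockouts and 2 controls. Stom sits between 657 and 776 in H and between 470 and 604 in L, and Nts between 317 and 466 in H and between 473 and 550 in L.

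Probe sets of 1 gene could disagree in direction. Scd2, a stearoyl-CoA desaturase that makes monounsaturated fatty acids, was singled out after its values were seen. One probe set read 671, 448, 453, 537.6 and 463 in H and 325, 249 and 347 in L, a difference of 0.71 ± 0.16 with no overlap. Its brightest probe set read 1351 to 2213 in H and 1649 to 2909 in L (-0.24 ± 0.20), and the other one gave -0.23 ± 0.23. Prelp, a matrix proteoglycan, was named in the same way, since both its probe sets had H higher (0.37 ± 0.07 without overlap and 0.25 ± 0.10 with overlap).

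The genes with the largest estimated differences varied within H and L as much as between them. Fgf15, the hormone that the ileum releases when bile acids activate the receptor FXR, read 15.6, 26.3, 67.3, 99.9 and 27.4 in H and 226, 50.6 and 231 in L, with 295 and 87.1 in the controls. L replicates 1 and 3 stood above all H knockouts, L replicate 2 within their range, and the difference was -1.54 ± 0.51 (limma unadjusted p = 0.0172, adjusted p = 0.9999). The other genes of ileal bile acid handling did not share this: the list had 5 of 10 genes higher and 5 lower, with a median of 0.0042. The bile acid exporter subunits Slc51a and Slc51b gave 0.08 and -0.06, the receptor Nr1h4 (FXR) -0.04, the FXR target Nr0b2 -0.09 and the ileal bile acid binding protein Fabp6 0.05 ± 0.12.

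Rbp2, the retinol-binding protein of enterocytes, read 183, 141, 213, 825 and 401 in H and 387, 728 and 774 in L. Its 3 H values of the upper number range were below all L values, but H replicate 4 was the highest of all 8 knockouts (-1.12 ± 0.33; -0.64 with the letter as a covariate). Gzma, granzyme A of cytotoxic lymphocytes, read 42.7, 463, 138, 158 and 217 in H and 212, 650 and 335 in L, which overlap (-1.09 ± 0.64). H2-Q2, a class I histocompatibility gene, read 4.37 in H replicate 1 and 51.4 to 142 in the other knockouts (-1.02 ± 0.53). Cyp2c55, Car2, Cyp2c65 and the peroxidase gene Lpo had differences of -1.84, -1.28, -1.16 and -1.06, with L replicate 3 the highest knockout for each. Without that array they were -0.07, 0.17, -0.14 and 0.14.

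Rpgrip1 and the sex-linked transcripts complete the genes past 2-fold. Rpgrip1, a ciliary protein of photoreceptors, read 6.58 in L replicate 1 and 149 to 482 in the other knockouts (1.09 ± 0.84). Xist read 713 in H replicate 4 and 5.73 to 6.53 in the other H knockouts, against 5.55, 1521 and 1012 in L; its difference of -3.02 became -0.22 with the letter as a covariate. The Y-linked Eif2s3y went from 1.30 to -0.04 in that fit. The letter is unevenly spread over H and L, and its part cannot be told apart from theirs without that covariate.

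Of the lists describing nutrient uptake, none had a median far from that of all genes. Among brush border peptidases and glycosidases 6 of 13 were higher and 7 lower (median -0.0089). The phosphatase Alpi read 1150, 606, 664, 929 and 971 in H and 1016, 911 and 800 in L, which overlap fully, and the peptidase Mep1a gave -0.18 ± 0.14. Of 12 amino acid and peptide transporters 7 were higher (median 0.05, or -0.19 without L replicate 3), and of 7 genes of sugar uptake and fructose use 3 were (median -0.0095). Slc5a1, the sodium-glucose cotransporter, gave -0.01 ± 0.13, and Slc2a5, the fructose transporter, -0.22 ± 0.10 (44.1 to 56.1 in H, 51.6 to 71.3 in L). Of 15 genes of cobalamin, iron and retinol uptake 8 were lower (median -0.0014). Quantile normalization of the arrays turned the sign of 7 lists, those of small intestine epithelium, brush border, sugar uptake, cobalamin uptake, tight junctions, glutathione and oxidative phosphorylation, whose medians lay between -0.02 and -0.0011. No gene of these uptake lists but Rbp2 had an unadjusted limma p under 0.05, a share that over all genes was 1.82%.

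Fat absorption and the synthesis of cholesterol and fatty acids had most genes lower in H, and sterol uptake and efflux most genes higher. Of 18 genes of fat absorption and chylomicrons 13 were lower in H (median -0.07), 0 of them at an unadjusted limma p under 0.05 (0.905% of all genes in that direction). Apoa4, a chylomicron protein that the gut makes after a fatty meal, read 819, 852, 764, 1023 and 1008 in H and 2269, 1409 and 666 in L; L replicates 1 and 2 exceeded every H knockout and L replicate 3 was below them all (-0.51 ± 0.32). Apoc3, another lipoprotein component, read 256, 202 and 85.4 in L against 60.1 to 138 in H (-0.54 ± 0.35), so that the same 2 L knockouts exceeded every H knockout. Without L replicate 3 both differences were larger, -1.13 and -1.16; without L replicate 1 the median of the list was 0.01. Cd36, a fatty acid transporter, went the other way, with 90.0, 229, 145, 81.2 and 178 in H and 66.3, 104 and 99.2 in L (0.54 ± 0.32). Its highest readings, 229 and 178, came from H replicates 2 and 5, the arrays highest in lung transcripts.

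Of 19 genes of cholesterol and fatty acid synthesis, 18 were lower in H, with a median of -0.17 against -0.0037 over all genes, although 1 passed an unadjusted limma p of 0.05 (0.905% of all genes did so as lower in H) and none the adjusted threshold. Dhcr7, which catalyses the last step to cholesterol, read 169, 153, 123, 194 and 161 in H and 242, 170 and 207 in L (-0.35 ± 0.14). Acly, which makes the acetyl-CoA for lipid synthesis, was the only one without overlap, with 421 to 527 in H and 531.4 to 566 in L (-0.17 ± 0.08). Over all genes 0.647% had every H value below every L value. Cyp51 (-0.33 ± 0.18), Fdft1 (-0.23 ± 0.12) and Idi1 (-0.22 ± 0.17), further enzymes of the sterol path, were highest in L replicate 1, at 734, 1107 and 799, and their groups overlapped. The list lay 0.42 above the knockout mean in L replicate 1 and between -0.23 and 0.09 in the other 7 knockouts. Without that array the median was -0.03, and within the lower number range alone it was 0.01. Genes of sterol uptake and efflux had 5 of 7 higher in H (median 0.13, or 0.03 without L replicate 3); Abcg5, which pumps sterols back into the gut lumen, read 497 to 610 in H and 372 to 562 in L (0.27 ± 0.11, and 0.14 without L replicate 3).

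Fat oxidation, fasting and growth lists were balanced. Targets of PPAR alpha had 9 of 17 genes higher and 8 lower (median 0.0044); Angptl4, a lipoprotein lipase inhibitor induced by fasting, read 33.2 to 56.3 in H and 33.6 to 38.3 in L (0.23 ± 0.12). Genes of amino acid stress and fasting had 10 of 18 higher (median 0.01). Ddit4, an inhibitor of mTORC1 induced by stress, read 215, 166, 201, 211 and 222 in H and 238, 247 and 222 in L, free of overlap by a small margin (-0.21 ± 0.09). Asns, the asparagine synthetase of the ATF4 response, overlapped (0.26 ± 0.23). Of 19 genes of the growth hormone and IGF axis 11 were lower (median -0.0051), with Igf2r at -0.15 ± 0.08 and Igfbp5 at -0.17 ± 0.10. The circadian clock list had 13 of 17 lower (median -0.08, or 0.0019 without L replicate 1), and Per2 and Per3, which depend on the time of day at collection, were highest in L replicate 1, at 117 and 76.8 against 28.2 to 62.9 and 18.9 to 40.9 in the other 7 knockouts. The labels do not state the time of collection.

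Beside Nts, a second gut peptide was lower in H at an unadjusted limma p under 0.05, 2 of the 17 enteroendocrine genes (0.905% of all genes had such a p in that direction). Gcg, the precursor of the glucagon-like peptides, read 604, 425, 541, 446 and 496 in H and 712, 614 and 545 in L (-0.29 ± 0.12). Pyy, peptide YY of the same enteroendocrine cells of the distal gut, read 425, 287, 295, 337 and 327 in H and 428, 373 and 368 in L (-0.22 ± 0.13). For both peptides H replicate 1 alone lay inside the L range and the other H knockouts below it. Over the list 8 genes were higher and 9 lower, and the median was -0.02. Neurod1 and Pax6, transcription factors of enteroendocrine cells, gave 0.08 and 0.09, at levels close to background.

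The secretory lineages and ion transport held no called gene. Goblet cell genes were lower in 16 of 18 (median -0.13), with Muc3 at -0.22 ± 0.15, Agr2, which folds mucins, at -0.12 ± 0.10 and Spdef, the goblet cell transcription factor, at -0.20 ± 0.19. H replicate 2 was lowest in these transcripts (mean deviation -0.55). Without L replicate 3 the median was -0.04. Of 11 Paneth cell genes 6 were lower (median -0.03), and Pla2g2a, an antibacterial phospholipase, read 6327 to 10080 in H and 8535 to 9266 in L. Of 26 genes of ion, bicarbonate and water transport 20 were lower (median -0.11, or -0.02 without L replicate 3), led by Car2 and the water channel Aqp8, both high in that array. The claudin list had 6 of 14 higher, Cldn8 the only one without overlap (0.946% of all genes with H higher).

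Epithelial defence genes had 14 of 21 higher in H (median 0.03, or 0.21 without L replicate 1 and -0.0028 without H replicate 3). None had an unadjusted limma p under 0.05 (1.82% of all genes did). The antibacterial lectin gene Reg3a read 371, 937, 413, 1023 and 492 in H and 329, 476 and 382 in L (0.56 ± 0.35), with 2 H knockouts well above the rest. S100a8, a calprotectin subunit of neutrophils, read 20.2, 82.5, 35.2, 42.0 and 48.8 in H and 25.4, 19.1 and 34.7 in L (0.47 ± 0.28). Ido1, an interferon-induced enzyme of tryptophan breakdown, read 527 in L replicate 2 and 78.6 to 193 in the other knockouts (-0.69 ± 0.43).

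All 23 genes of the interferon response were lower in H than in L, with a median of -0.29. At an unadjusted limma p under 0.05 stood 3 of them (0.905% of all genes in that direction). Groups without overlap were seen for 0 of them (0.647% of all genes with H lower). Stat2, which transmits the interferon signal, read 47.6, 54.4, 40.6, 59.7 and 59.4 in H and 54.6, 70.1 and 75.1 in L (-0.29 ± 0.09). Irf7, which amplifies it, read 153, 122, 119, 119 and 131 in H and 126, 191 and 216 in L (-0.40 ± 0.16), and Ifit3 28.5 to 47.9 against 45.5 to 76.1 (-0.39 ± 0.17). L replicates 2 and 3 were above most H knockouts for these genes, and L replicate 1 was among them.

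The interferon values moved with single animals and with the letter. The list lay 0.74 above the knockout mean in L replicate 2, 0.22 above it in L replicate 3 and 0.42 below it in L replicate 1, while H replicates spanned -0.47 to 0.27. With the letter as a further covariate the median was -0.06, without L replicate 1 it was -0.60, and without L replicate 2, the highest array, it was -0.03; it was negative in 24 alternative settings. Igtp, a GTPase induced by interferon gamma, showed the individual pattern, with 65.4, 349, 37.6, 113 and 140 in H and 43.4, 725 and 132 in L. L replicate 2 and H replicate 2 were high together, 1 animal of each class. The same was true of Iigp1 (446 and 327, against 34.0 to 92.0 in the other knockouts) and the chemokine Cxcl9 (212 and 186, against 13.9 to 56.7). Ubd read 265 and 157 in these 2 animals, against 11.3 to 37.1 in the other knockouts. The controls were not low: they read 244 and 267 for Igtp, 83.3 and 127 for Iigp1, 130 and 88.05 for Cxcl9, and 186 and 155 for Ubd.

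Antigen presentation and T and killer cell lists, like the interferon list, had medians below 0. Class II presentation had 8 of 9 genes lower (median -0.28), class I and peptide loading 12 of 13 (median -0.17) and T and killer cells 12 of 15 (median -0.18). In these lists 0 genes had an unadjusted limma p under 0.05, a share that over all genes was 1.82%. Cd74, the invariant chain, read 631, 3397, 874, 2044 and 2184 in H and 1529, 3709 and 1683 in L (-0.49 ± 0.57). H replicates 1 and 3 were lowest and both H replicate 2 and L replicate 2 highest, so that the spread within H was larger than the difference. With the letter as a further covariate these 3 medians were -0.04, 0.02 and 0.06, and without L replicate 2 they were 0.03, 0.04 and 0.07. Macrophage and dendritic cell genes had 14 of 17 higher in H (median 0.10, or -0.02 without either H replicate 2 or L replicate 1), B and plasma cells 10 of 16 (median 0.04), and Ighm, the heavy chain of IgM, read 105, 225, 101, 243 and 191 in H and 114, 115 and 119 in L (0.41 ± 0.25).

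Lists of non-epithelial and lung cells also varied between single arrays. Smooth muscle genes were lower in 13 of 14 (median -0.24), and Myh11, smooth muscle myosin, read 311, 234, 637, 258 and 292 in H and 466, 340 and 488 in L; H replicate 3 was the highest of all. Without L replicate 3 the median was -0.09. Collagen and matrix genes were lower in 17 of 22 (median -0.10, or 0.01 without L replicate 1) and adipocyte genes in 6 of 7 (median -0.25, or 0.02 without H replicate 1). Alveolar type 2 genes were higher in 8 of 9 (median 0.36, or 0.13 without H replicate 2), and Sftpb, surfactant protein B, read 198, 408, 112, 145 and 350 in H and 135, 197 and 120 in L (0.52 ± 0.41). Club cell genes, of the small airways, were higher in 7 of 8 (median 0.25, or 0.0002 without L replicate 3 and 0.06 without H replicate 2). Among these, Aldh1a7 (0.01 ± 0.30) and Reg3g (0.02 ± 0.06), which read 9310 to 10130 in the knockouts, were close to 0. Cyp2f2 read 363, 804, 155, 268 and 671 in H and 161, 459 and 223 in L. Leaving out H replicates 2 and 5, a setting added after the values were seen, gave an alveolar type 2 median of -0.04.

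**Figure D4:**
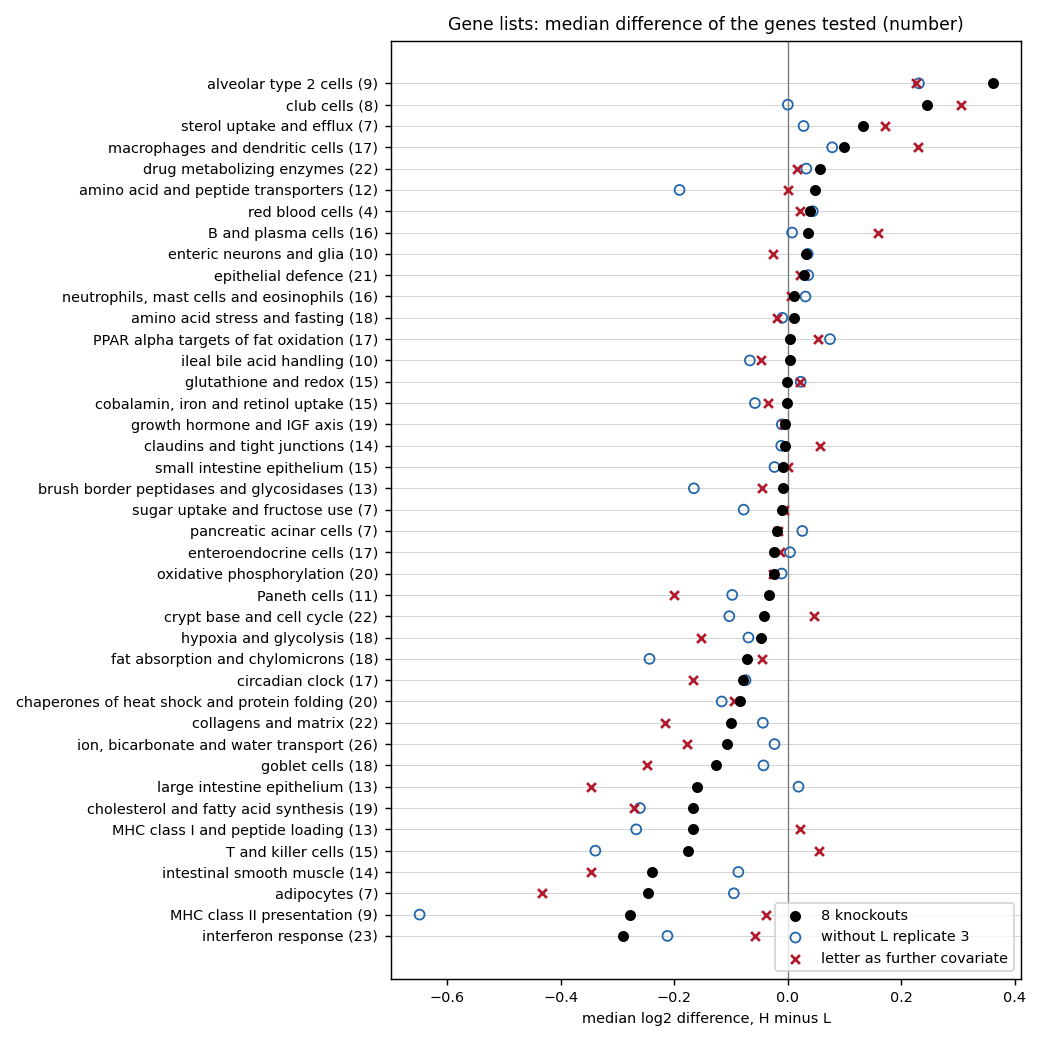
Median log2 difference, H minus L, of the genes tested on each list (horizontal axis; number of genes in brackets), for all 8 knockouts (black), without L replicate 3 (open blue) and with the letter as a further covariate (red crosses). The interferon list moves from -0.29 to -0.06 with the letter and the class II list from -0.28 to -0.65 without L replicate 3.

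Other lists gave small medians with mixed signs. Of 20 chaperones 16 were lower (median -0.08, or 0.04 without H replicate 3), with the heat shock genes Hspa1a and Hspa1b at -0.32 ± 0.40 and -0.35 ± 0.49. Oxidative phosphorylation had 14 of 20 lower (median -0.02), hypoxia and glycolysis 11 of 18 (median -0.05), and glutathione and redox 8 of 15 (median -0.0011). Pfkl, a phosphofructokinase of glycolysis, read 243, 167, 252, 302 and 276 in H and 271, 252 and 399 in L (-0.32 ± 0.13). Drug metabolizing enzymes had 13 of 22 higher (median 0.06, or -0.03 without H replicate 1 and -0.08 without L replicate 1); the carboxylesterase Ces2e read 682, 682, 644, 684 and 699 in H and 597, 641 and 594 in L, a small difference without overlap (0.15 ± 0.05). Crypt base and cell cycle genes had 14 of 22 lower (median -0.04), with the stem cell marker Olfm4 at -0.08 ± 0.11 and the proliferation marker Mki67 at -0.09 ± 0.13.

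With no account of the number range, pairs of knockouts from different classes differed by about as much as pairs within a class. Pairs from the same number range made up a larger share of the H to L pairs than of those within a class. Whether class adds to these distances beyond the number range was not tested. Among the 8 knockouts 1101 probe sets spanned more than 2-fold, and 7 of these (0.636%) had no overlap between H and L, against 1.56% of all probe sets; 156 spanned more than 4-fold, and 0 of these had none. Root mean square log2 differences between arrays were 0.179 to 0.318 within H (10 pairs, median 0.256), 0.262 to 0.301 within L (3 pairs, median 0.274) and 0.199 to 0.327 between H and L (15 pairs, median 0.247), and these ranges overlapped throughout. The first principal component, with 30.4% of the variance, placed L replicate 2 (20.0) beside H replicate 2 (27.5) and L replicate 3 (-20.3) beside H replicate 3 (-12.3). On the second, with 23.3%, L replicate 3 (14.2) lay far from H replicate 3 (-20.8), which was beside L replicate 1 (-19.7).

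Examples of such single animals came from secretory and absorptive cells. Retnlb, the goblet cell product resistin-like molecule beta, read 2472, 355, 6919, 3226 and 4118 in H and 5207, 937 and 3842 in L, with 20.2 and 512 in the controls. Car1, a carbonic anhydrase of the large intestine, read 2682, 10.2, 108, 137 and 1120 in H and 12.8, 241 and 5827 in L. Defa39, a Paneth cell defensin, read 204 in H replicate 3 and 640 in L replicate 1 but 1943 to 3822 in the other knockouts. Ada, the purine enzyme adenosine deaminase, was highest in L replicates 1 and 2, at 2175 and 1266, and read 277 in L replicate 3 and 301 to 716 in H. In each of these genes the high and the low animals were drawn from both classes or the L knockouts split among themselves.

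**Figure D5:**
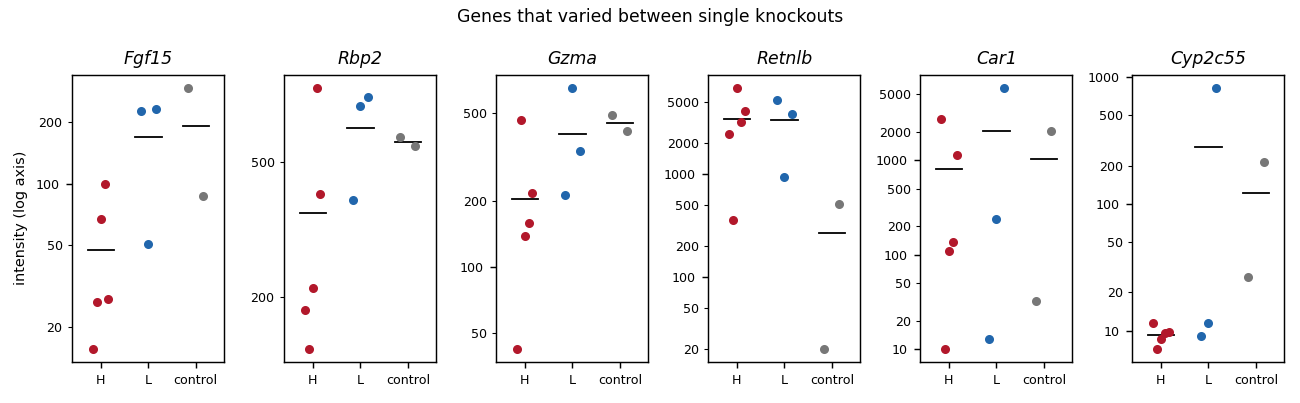
Intensity (log axis) of 6 genes that varied between single knockouts; each point is an array and each bar the group mean, for 5 H knockouts, 3 L knockouts and 2 controls. H and L points overlap in every panel, and Cyp2c55 is high (824) in L replicate 3 alone among the knockouts.

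The number range separated more transcripts than the class did. In the same fit the number range term passed the adjusted threshold of 0.05 for 493 of 26208 probe sets, against 0 for the class. Ap2b1, a subunit of the clathrin adaptor, read 75.5 to 97.3 in the 5 knockouts of the upper range and 322 to 343 in the 3 of the lower range, where the controls read 413 and 395. Both classes are present in both ranges, and all 410 probe sets without overlap had the same sign in each range by construction. The H minus L difference itself depended on the range for 3 probe sets (0.0114%; limma interaction adjusted p under 0.05), of Cyp2c55, Car2 and Lpo. The lower range holds a single L knockout, L replicate 3, so that these values describe that animal.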

How the data were processed

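The authors deposited linear intensity values, 1 for each probe set on each array; how they were summarized and normalized is not stated in the labels or the file, and they were not normalized again. Of 45101 probe sets, 64 array controls, 932 with several gene symbols and 9160 with none were left out. Of the remaining 34945, 34741 were matched by gene identifier to the RefSeq gene list of GRCm38.p6 and took its symbol. Probe sets at or under the 25th percentile of the mean over the 8 knockouts (intensity 11.6) were left out. Values were analysed as log2(intensity + 16) by a linear model with moderated statistics (lmFit and eBayes of limma 3.58.1, R 4.3.3) that held the class and the number range, and the fit was tested on simulated data. Plots were made in matplotlib 3.10.9. Differences are H minus L; intervals are at 95%. The number of arrays limits the precision. No 2 arrays held identical values.

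Each gene was represented by its brightest probe set. Named were the 12 highest and 12 lowest genes by moderated t, up to 8 of each direction without overlap, 2 members of each of the 41 lists with the smallest p, Cftr and markers of tissue and letter; further list members, genes that stood apart in single arrays and 1 added list were chosen after their values were seen. The members and lists were chosen with earlier results of these data known. Alternatives were other pseudocounts, filters, covariates, normalization and fits, each number range alone, and each replicate left out.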

Additional observations from a re-analysis of the deposited data

Results flagged for a closer look

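In the group of 5 H knockouts, 11 of 128 named genes and 1 of 42 lists had an array whose gap to its nearest neighbour exceeded 0.71 of the group's range (Dixon's 95% critical value for 5 samples); chance alone flags about 1 in 20 groups, and genes are not independent. H replicate 3 was highest for Pyroxd2 (intensity 74.5) and the mast cell protease Cpa3 (23.2). It was lowest for the amino acid transporter Slc16a10 (24.6), the endoplasmic reticulum protein Sdf2l1 (187), the transcription factor Nfil3 (23.6) and the list of cobalamin, iron and retinol uptake (mean log2 deviation -0.261). H replicate 2 was lowest for Mep1a (1216) and H replicate 1 highest for Ndufb8, a subunit of respiratory complex I (889). H replicate 4, the only H knockout with the letter F, was highest for Xist (713) and lowest for the Y-linked Kdm5d (5.1), Eif2s3y (4.58) and Uty (10.1).

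The H minus L difference was -5.03 in the lower and -0.07 in the upper number range for Cyp2c55, -3.89 and 0.17 for Car2, and -3.22 and 0.14 for Lpo on the log2 scale. The limma interaction term, upper minus lower, was 4.97, 4.06 and 3.36 (adjusted p = 0.00037, 0.0143 and 0.0158). In the lower range the L class is L replicate 3 alone, which read high for all 3 genes.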

How the results depend on the processing

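No alternative called a probe set past the adjusted threshold except the lower number range alone, where 2 H knockouts against L replicate 3 on 1 residual degree of freedom gave 18. The count at an unadjusted limma p under 0.05 (515) was 910 with no filter, 236 with a filter at the 50th percentile, 258 with 1 probe set per gene, 1678 in the lower number range alone, and 382 to 928 with 1 replicate left out, highest without H replicate 3 and 779 without H replicate 1. The count without overlap (410 of 26208) was 656 of 34945 with no filter, 206 of 17472 with the stricter filter and 234 of 14694 with 1 probe set per gene. It was 3643 in the upper and 18053 in the lower number range alone, and 625 to 2196 with 1 replicate left out, highest without L replicate 3. It was 1352 without H replicates 2 and 5, and 4753 without these and L replicate 3, both chosen after seeing the data; fewer arrays overlap less often by construction. With the number range as covariate, leaving out L replicate 3 gives the same differences as the upper range alone. No paired analysis was possible because the titles give no replicate numbers that H and L share. Signals near the array medians stand little above background, which limits what can be seen for dim transcripts.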
